A study of Mus musculus with 13 samples.

Results

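Activated, phagocytic microglia are described here by 10 genes, Trem2, Tyrobp, Apoe, Cst7, Lpl, Clec7a, Axl, Spp1, Cd68 and Gpnmb, which were chosen by name out of 48795 genes in the table of counts. RNA was sequenced from right hemispheres of 13 mice at postnatal day 11, after olfactory bulb and cerebellum were removed, with every mouse on the C57BL/6J strain background. The 5 nlsYAP5SA mice had the genotype NexCre +/- YAP5SAnls +/-, the 5 control littermates were NexCre -/- YAP5SAnls +/-, and the 3 C57BL/6 mice were wild type. The transgene codes for a nuclear, hyperactive YAP1 behind a floxed stop, so that controls carried it without Cre, and both alleles were heterozygous where present. The NEX-Cre driver acts in precursors of pyramidal neurons (NEX/NeuroD6 lineage), from which microglia do not arise. Littermates came from different matings, which the labels do not assign to mice.

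Microglia are the resident macrophages of the brain. In damaged, degenerating or tumour-bearing tissue, and around axon tracts early in postnatal life, some of them take on a state in which receptors for lipids and dying cells, secreted factors and lysosomal proteins are raised. TREM2 binds lipids at the cell surface and signals through its adaptor TYROBP, and several of the other 9 genes are known to depend on this pair in disease models. Not every member is made by microglia alone: Apoe is also abundant in astrocytes, Lpl and Axl are found in other brain cells, and osteopontin, the product of Spp1, is made by some neurons.

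Promoters are printed for the 3 members with the largest fold change of the 9 tested against controls (Clec7a, Spp1 and Gpnmb), for Trem2 as the receptor of the state, and for Axl, where letters bound by TEAD factors, the DNA-binding partners of YAP1, were found. They are the 250 bases before the transcription start in RefSeq (GRCm38.p6), 5′ to 3′ on the gene's own strand, with matches to the motifs below in capitals. Clec7a is at chr6:129472780-129473029 (minus strand), Spp1 at chr5:104434861-104435110 (plus strand), Gpnmb at chr6:49036268-49036517 (plus strand), Trem2 at chr17:48346151-48346400 (plus strand) and Axl at chr7:25788734-25788983 (minus strand).
Clec7a: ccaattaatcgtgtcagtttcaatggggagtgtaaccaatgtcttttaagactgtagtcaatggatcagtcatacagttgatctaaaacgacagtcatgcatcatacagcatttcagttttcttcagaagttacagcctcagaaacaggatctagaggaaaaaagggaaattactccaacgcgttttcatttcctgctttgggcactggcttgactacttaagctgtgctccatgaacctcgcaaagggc
Spp1: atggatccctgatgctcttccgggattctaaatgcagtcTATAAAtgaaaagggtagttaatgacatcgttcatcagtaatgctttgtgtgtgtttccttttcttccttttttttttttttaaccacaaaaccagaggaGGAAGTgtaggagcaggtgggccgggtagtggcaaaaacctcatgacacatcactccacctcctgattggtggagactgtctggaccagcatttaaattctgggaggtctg
Gpnmb: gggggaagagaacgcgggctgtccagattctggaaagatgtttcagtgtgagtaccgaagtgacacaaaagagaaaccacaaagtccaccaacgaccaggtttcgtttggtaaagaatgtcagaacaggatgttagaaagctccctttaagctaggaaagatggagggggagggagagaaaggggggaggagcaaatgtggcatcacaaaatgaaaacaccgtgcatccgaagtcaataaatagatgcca
Trem2: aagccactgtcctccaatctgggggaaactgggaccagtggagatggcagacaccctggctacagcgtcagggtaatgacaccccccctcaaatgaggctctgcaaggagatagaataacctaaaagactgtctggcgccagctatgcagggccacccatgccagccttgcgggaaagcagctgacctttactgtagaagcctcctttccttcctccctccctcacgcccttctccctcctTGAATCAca
Axl: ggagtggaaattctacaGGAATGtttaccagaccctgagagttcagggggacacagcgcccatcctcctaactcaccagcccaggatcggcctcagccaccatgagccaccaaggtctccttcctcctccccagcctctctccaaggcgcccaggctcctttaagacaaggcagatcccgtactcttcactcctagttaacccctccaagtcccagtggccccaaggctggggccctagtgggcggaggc

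RefSeq promoters were matched for 8 of the 10 genes, all but Tyrobp and Lpl. The TEAD letters CATTCC, searched on both strands, were in 12.6% of all 32851 promoters and in 1 of the 8, Axl, on the other strand 233 bases before the start. The ETS letters GGAAGT, which PU.1 can bind, were in 19.7% of all promoters and in Cst7 and Spp1. A loose form of the AP-1 letters (TGANTCA, with any base in the middle) was in 6.75% of all promoters. It was in Trem2 9 bases before the start, as TGAATCA, and at 2 positions in Cd68, as TGAGTCA. The E-box CACGTG of MITF, TFEB and TFE3 was in 6.02% of all and in 0 of the 8. TATAAA on the coding strand was in 7.59% of all and in Spp1. These are matches of letters and are given as a description of the windows.

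Libraries held between 20871566 and 25524349 estimated counts. The level of a gene is given as CPM, the count divided by the library size in units of 1 M counts and scaled with TMM over all 13 libraries. Differences are log2 fold changes from edgeR's quasi-likelihood test, with their standard error (SE) and a Benjamini-Hochberg adjusted p over all genes tested; a gene was called at an adjusted p of 0.05 or less. The row of the targeted gene, Yap1, was between 19.95 and 22.3 CPM in controls and between 22.6 and 26.6 CPM in nlsYAP5SA mice (log2 fold change 0.22 ± 0.06 SE, adjusted p = 0.0361). Its call was lost in 8 of the 10 fits that left out a mouse (adjusted p between 0.0559 and 0.0846), and Yap1 was not called against C57BL/6 mice (0.22 ± 0.08, adjusted p = 0.130). This row need not count reads of the transgene. All 12 markers of homeostatic microglia were detected in every group. Libraries stood apart in 2 respects. Ttr, the transthyretin gene of the choroid plexus, was at most 2.14 CPM in controls 2, 3 and 4, nlsYAP5SA mouse 4 and C57BL/6 mouse 1, but at least 55.2 CPM in the other mice of each group. The 4 Y-linked genes summed to between 2225 and 3097 counts in the 5 controls and to 3005 and 3096 counts in nlsYAP5SA mice 3 and 4, but to 2 counts each in nlsYAP5SA mice 1, 2 and 5. C57BL/6 mouse 2 had 0 counts and the other two had 2660 and 3536. Since no control lacked these counts, the differences of the members from controls and the calls in each list are also given for the mice that had them, while ranges, levels per length and ratios are over all mice. Yap1 was not called within them (0.18 ± 0.09, adjusted p = 0.535).

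Between nlsYAP5SA and control mice, 9 of the 10 members passed the filter on low counts, Clec7a only through the nlsYAP5SA mice. Of these, 8 were called higher and 1 lower. The share called among all 16315 genes tested was 7.36% higher and 3.44% lower. In 7 of the 9, every nlsYAP5SA mouse was above every control (6.49% of all genes), and in 0 of the 9 was every nlsYAP5SA mouse below (3.57% of all genes). The median log2 fold change of the 9 was 0.86, against -0.0054 over all genes tested. In RNA of a whole hemisphere, more cells of a type and more RNA per cell cannot be told apart.

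**Figure D1:**
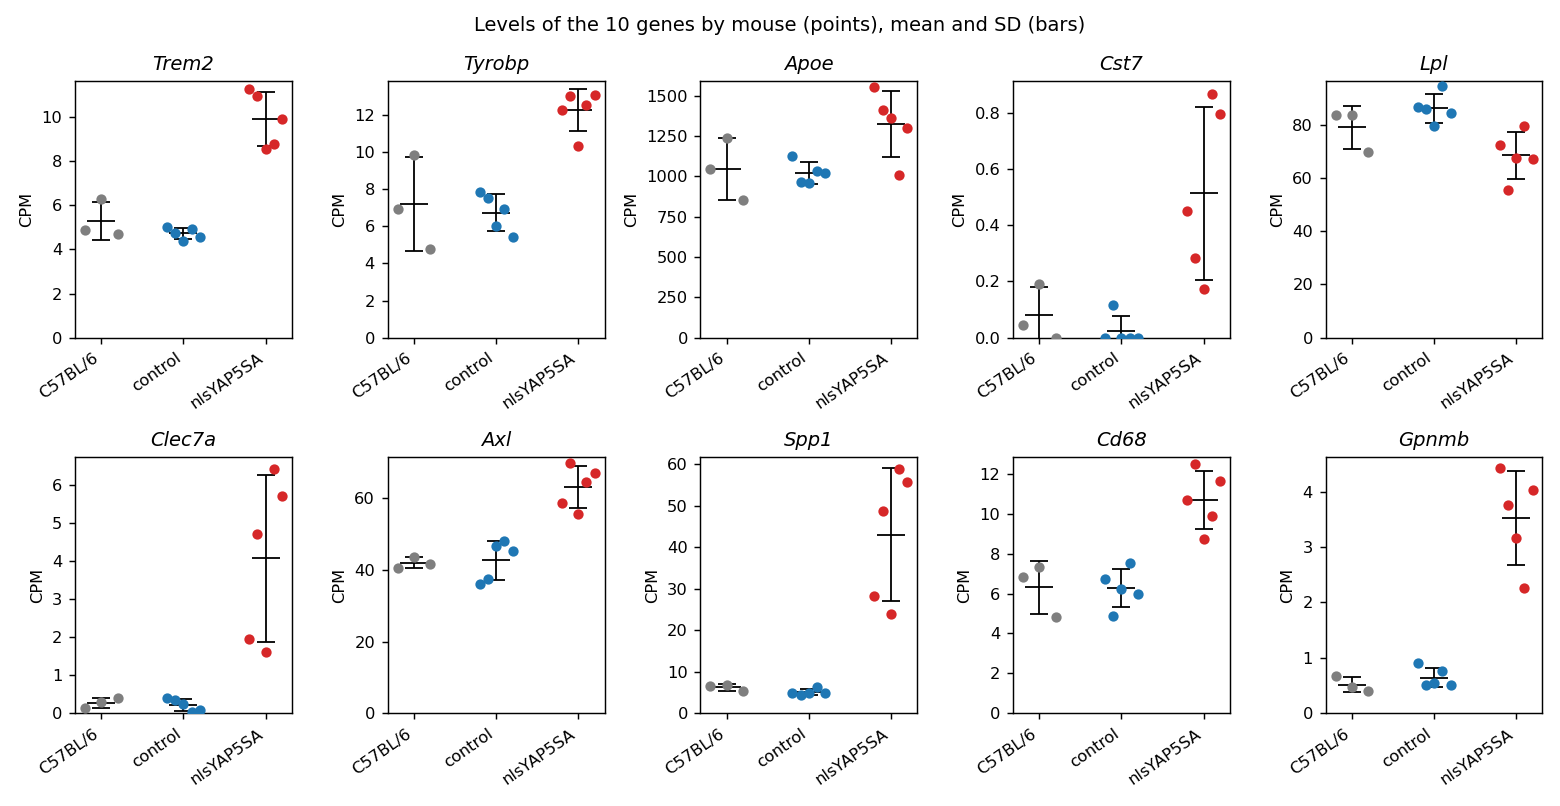
Level of each of the 10 genes in CPM (vertical axes, linear, from 0), with 1 point per mouse in 3 C57BL/6, 5 control and 5 nlsYAP5SA mice; the bars give mean and SD. All nlsYAP5SA mice are above all controls for Trem2, Tyrobp, Cst7, Clec7a, Axl, Spp1, Cd68 and Gpnmb, while Apoe and Lpl overlap.

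Trem2 (ENSMUSG00000023992, chr17:48346401-48354147, plus strand, GRCm38) encodes the lipid receptor itself. It was measured at 5.03, 4.73, 4.37, 4.91 and 4.58 CPM in controls 1 to 5, and at 11.3, 11.0, 8.57, 8.78 and 9.92 CPM in nlsYAP5SA mice 1 to 5. Every nlsYAP5SA mouse was above every control, and the controls lay close together. The log2 fold change was 1.06 ± 0.10 (SE, adjusted p = 2.43e-05), a fold change of 2.09. The C57BL/6 mice were at 4.88, 6.27 and 4.72 CPM, where mouse 2 lay above the controls and the other two among them. Within the mice with Y-linked counts, 5 controls and 2 nlsYAP5SA mice, the difference was 0.87 ± 0.11 (adjusted p = 0.00467).

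Tyrobp (ENSMUSG00000030579, chr7:30413760-30417585, plus strand) encodes the adaptor with an ITAM, through which TREM2 and several other receptors signal. Controls were at 7.85, 7.51, 6.00, 6.92 and 5.43 CPM and nlsYAP5SA mice at 12.3, 13.03, 10.3, 12.6 and 13.1 CPM. The groups did not overlap, and this was the member with the lowest relative spread among nlsYAP5SA mice (CV 9.32%). Its log2 fold change was 0.86 ± 0.11 (adjusted p = 0.000369), and 0.75 ± 0.16 (adjusted p = 0.0469) within the mice with Y-linked counts. C57BL/6 mice were at 6.95, 9.87 and 4.80 CPM, a wider range than that of the controls but below all nlsYAP5SA mice.

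Clec7a (ENSMUSG00000079293, chr6:129461591-129472779, minus strand), the gene of the beta-glucan receptor dectin-1, is typed in GENCODE as a polymorphic pseudogene. It had the largest fold change of the 9 tested. Controls were at 0.409, 0.352, 0.250, 0.042 and 0.094 CPM, and nlsYAP5SA mice at 1.94, 4.71, 1.60, 6.43 and 5.71 CPM. Even the lowest nlsYAP5SA mouse was well above the highest control, but the nlsYAP5SA mice themselves ranged over 4.01-fold. These levels rest on 28 counts in all controls together and 450 in all nlsYAP5SA mice. This gave a log2 fold change of 4.09 ± 0.52 (adjusted p = 0.000295), and 4.07 ± 0.61 (adjusted p = 0.00939) within the mice with Y-linked counts. C57BL/6 mice were at 0.134, 0.287 and 0.403 CPM, within the range of the controls.

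Axl (ENSMUSG00000002602, chr7:25757273-25788705, minus strand) encodes a receptor tyrosine kinase of the TAM family, which binds dying cells through GAS6. Its level was 36.1, 37.6, 46.7, 48.0 and 45.4 CPM in controls, and 58.8, 70.0, 55.6, 64.6 and 67.2 CPM in nlsYAP5SA mice. The groups did not overlap, with a smaller change than for the receptors above. A log2 fold change of 0.56 ± 0.09 was fitted (adjusted p = 0.00129); within the mice with Y-linked counts it was 0.49 ± 0.12, no longer called (adjusted p = 0.0995). C57BL/6 mice, at 40.6, 43.6 and 41.8 CPM, lay among the controls. The paper reports brain tumours in nlsYAP5SA mice and counts AXL among known YAP1 downstream effectors. It also shows AXL staining in tumours of mice without the LATS kinases. Which cells carried the change of Axl was not tested.

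Spp1 (ENSMUSG00000029304, chr5:104435118-104441050, plus strand) encodes the secreted phosphoprotein osteopontin. Controls were at 4.82, 4.50, 4.96, 6.25 and 5.003 CPM, and nlsYAP5SA mice at 28.2, 48.7, 24.03, 58.9 and 55.7 CPM. Mice 1 and 3 were lower than the other nlsYAP5SA mice, yet far above each control. Its log2 fold change was 3.08 ± 0.25 (adjusted p = 9.12e-06), a fold change of 8.43, and 3.02 ± 0.27 (adjusted p = 0.000694) within the mice with Y-linked counts. C57BL/6 mice were at 6.50, 6.90 and 5.33 CPM. The exons of Spp1 overlap those of Gm42793 on the same strand, which was at or below 0.087 CPM in every mouse.

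Gpnmb (ENSMUSG00000029816, chr6:49036546-49070929, plus strand) encodes a transmembrane glycoprotein of late endosomes and lysosomes. Its level was 0.899, 0.509, 0.542, 0.755 and 0.519 CPM in controls and 4.43, 3.76, 3.16, 2.26 and 4.03 CPM in nlsYAP5SA mice. Here mouse 4, the highest for Clec7a and Spp1, was the lowest of its group, though still above all controls. Against controls the log2 fold change was 2.43 ± 0.23 (adjusted p = 2.69e-05), a fold change of 5.40, and 2.06 ± 0.28 (adjusted p = 0.00615) within the mice with Y-linked counts. C57BL/6 mice were at 0.672, 0.479 and 0.403 CPM.

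Cd68 (ENSMUSG00000018774, chr11:69664213-69666153, minus strand) encodes a lysosomal glycoprotein used to stain phagocytic macrophages. Controls were at 6.74, 4.89, 6.21, 7.51 and 6.00 CPM, nlsYAP5SA mice at 10.7, 12.5, 8.75, 9.91 and 11.7 CPM, and C57BL/6 mice at 6.81, 7.33 and 4.80 CPM. The nlsYAP5SA mice did not overlap either other group. The log2 fold change against controls was 0.77 ± 0.13 (adjusted p = 0.00162), and 0.57 ± 0.16 within the mice with Y-linked counts, where it was not called (adjusted p = 0.139). With the summed Y-linked level as a covariate it was 0.58 ± 0.14 (adjusted p = 0.0549).

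Cst7 (ENSMUSG00000068129, chr2:150570415-150578944, plus strand) encodes cystatin F, an inhibitor of cysteine proteases such as cathepsin C, and was too low for the filter. It had 3 counts in the controls together, all in control 2, and 57 in the nlsYAP5SA mice. Controls were at 0, 0.117, 0, 0 and 0 CPM, nlsYAP5SA mice at 0.452, 0.282, 0.173, 0.869 and 0.796 CPM, and C57BL/6 mice at 0.045, 0.192 and 0 CPM. The nlsYAP5SA mice were above every control, and those with Y-linked counts (mice 3 and 4) held both the lowest and the highest value of their group. The ratio of counts per library size was 20.4 (95% exact interval 6.64 to 101.9, counting error only), and an exact permutation test (two-sided, 5 against 5 mice) gave p = 0.00794, the smallest it can give. In an edgeR fit with no filter the log2 fold change was 4.09 ± 0.78 (adjusted p = 0.0030).

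Apoe (ENSMUSG00000002985, chr7:19696109-19699188, minus strand) encodes the main apolipoprotein of the brain. Controls were at 1129, 967, 957, 1033 and 1019 CPM, and nlsYAP5SA mice at 1557, 1410, 1360, 1006 and 1299 CPM. Mouse 4 lay within the range of the controls, and the other four were above it. The log2 fold change was 0.37 ± 0.10 (adjusted p = 0.0270). This call was lost without control 2, 3, 4 or 5 and without nlsYAP5SA mouse 1, 2, 3 or 5 (adjusted p between 0.0508 and 0.0670 in these 8 fits), and within the mice with Y-linked counts (0.21 ± 0.12, adjusted p = 0.630). The summed level of 8 astrocyte markers was between 3277 and 5737 CPM in controls and between 5147 and 7169 CPM in nlsYAP5SA mice. With that sum as a covariate the log2 fold change of Apoe was 0.40 ± 0.13 (adjusted p = 0.0681). C57BL/6 mice were at 1044, 1238 and 856 CPM.

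Lpl (ENSMUSG00000015568, chr8:68880491-68907448, plus strand), the gene of lipoprotein lipase, which releases fatty acids from triglycerides, moved the other way. Controls were at 86.8, 86.1, 79.4, 94.5 and 84.5 CPM and nlsYAP5SA mice at 72.5, 55.7, 67.6, 79.6 and 67.1 CPM. The groups overlapped only by nlsYAP5SA mouse 4, which stood just above control 3. Lpl fell by 0.34 on the log2 scale (SE 0.08, adjusted p = 0.0199). The call was lost without control 4 (-0.30, adjusted p = 0.0614), without nlsYAP5SA mouse 5 (-0.33, adjusted p = 0.0558), within the mice with Y-linked counts (-0.24, adjusted p = 0.363) and with the astrocyte sum as a covariate (-0.22, adjusted p = 0.137). C57BL/6 mice were at 83.5, 83.7 and 69.8 CPM.

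**Figure D2:**
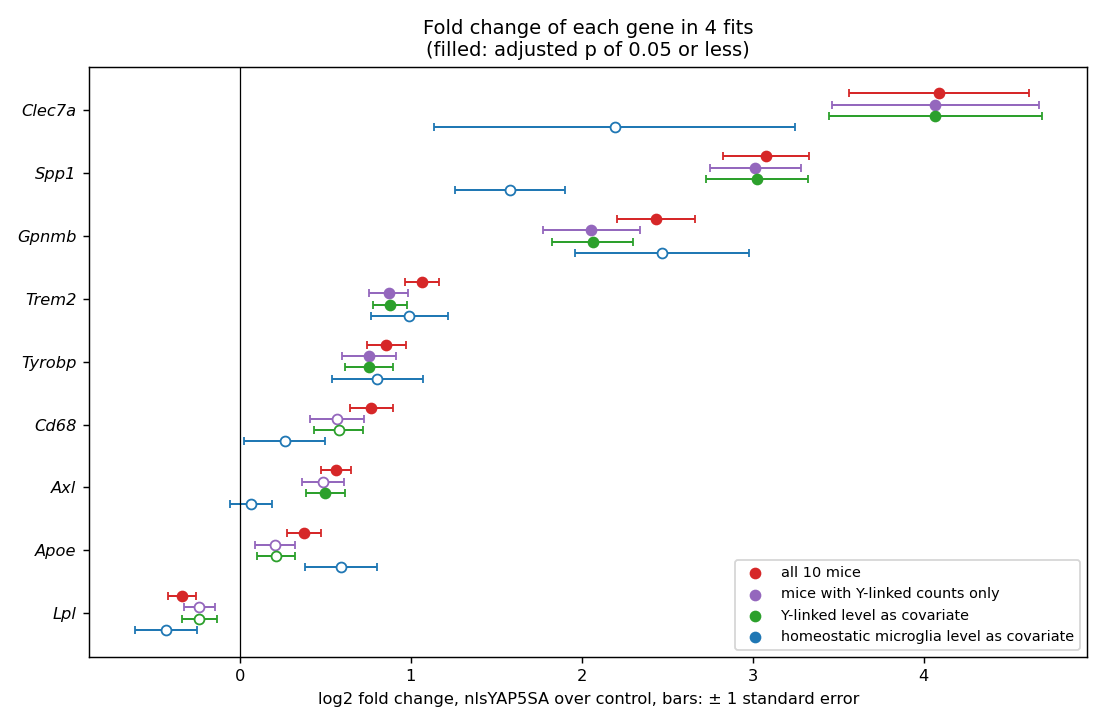
Log2 fold change of the 9 tested members between nlsYAP5SA and control mice (horizontal axis, bars ± 1 standard error) in 4 fits: all 10 mice, the mice with Y-linked counts, the summed Y-linked level as a covariate and the summed level of homeostatic microglia markers as a covariate; filled points are called. Clec7a, Spp1, Gpnmb, Trem2 and Tyrobp are filled in the first 3 fits, and no member is filled in the last.

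The 10 genes did not rank the nlsYAP5SA mice alike. Mouse 3 was the lowest of the 5 for Trem2, Tyrobp, Cst7, Clec7a, Axl, Spp1 and Cd68. Mouse 4 was the highest for Cst7, Lpl, Clec7a and Spp1, but the lowest for Apoe and Gpnmb. Mouse 1 was the highest for Trem2, Apoe and Gpnmb, mouse 2 for Axl and Cd68, and mouse 5 for Tyrobp. The CV among nlsYAP5SA mice was 59.9% for Cst7, 53.8% for Clec7a, 37.2% for Spp1 and 23.95% for Gpnmb, and between 9.32% and 15.3% for the other 6. Mouse 4 also had the lowest level of its group for Ttr, at 0.782 CPM against 55.2 to 276 CPM in the other four. With Ttr as a covariate all 9 calls were kept, Apoe at 0.26 ± 0.07 (adjusted p = 0.0414) and Lpl at -0.30 ± 0.08 (adjusted p = 0.0457).

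**Figure D3:**
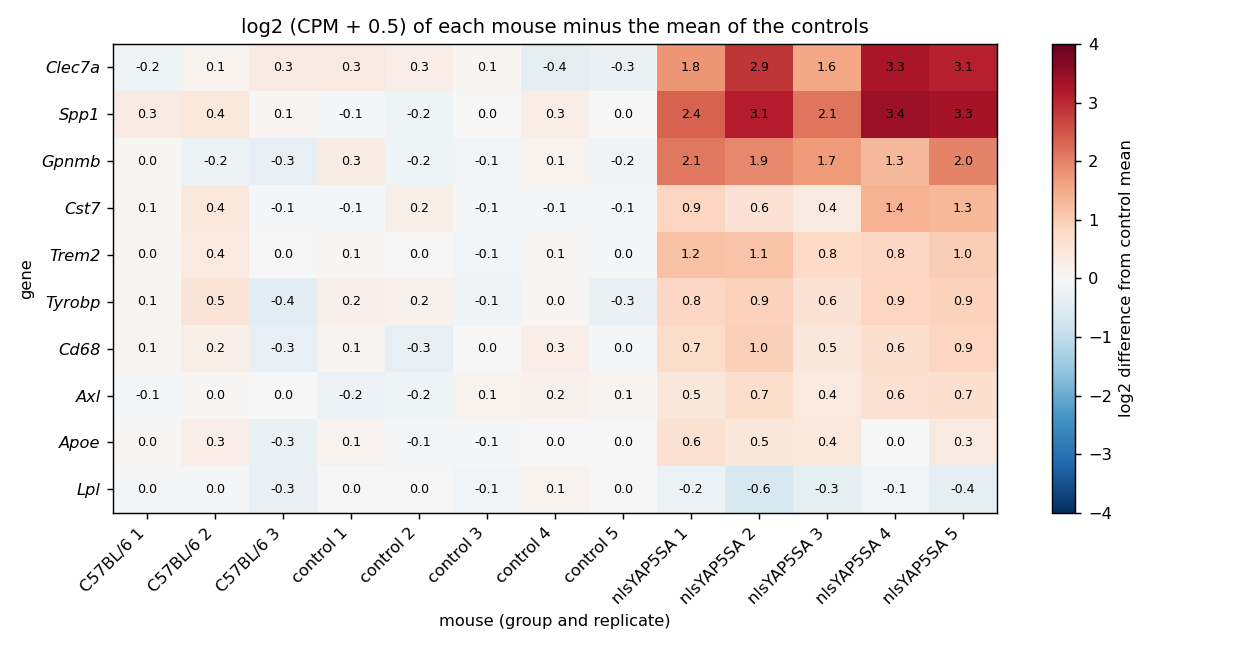
Log2 (CPM + 0.5) of each of the 10 genes (rows) in each of the 13 mice (columns), minus the mean of the 5 controls; colour and number give the difference. Clec7a and Spp1 reach 3.28 and 3.41 in nlsYAP5SA mouse 4, where Apoe is at -0.02, and Lpl is below 0 in all 5 nlsYAP5SA mice.

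Per kilobase of exonic length, Apoe was the most abundant member in controls, at 478 ± 32.1 CPM per kb (mean ± SD, n = 5), followed by Tyrobp (10.1 ± 1.52), Axl (8.49 ± 1.09) and Lpl (8.23 ± 0.52), whose ranges overlapped. Cd68 (4.99 ± 0.77), Spp1 (3.10 ± 0.41) and Trem2 (0.955 ± 0.052) followed without overlap. Gpnmb (0.099 ± 0.027), Clec7a (0.087 ± 0.060) and Cst7 (0.024 ± 0.053) were the lowest, with overlapping ranges. In nlsYAP5SA mice Apoe was again first, at 621 ± 94.9 CPM per kb. Spp1 came next at 26.2 ± 9.72, with a range that overlapped Tyrobp (18.4 ± 1.71), and was followed by Axl (12.6 ± 1.18), Cd68 (8.51 ± 1.16) and Lpl (6.54 ± 0.84), the last pair with overlap. Trem2 was at 2.003 ± 0.25 and Clec7a at 1.55 ± 0.83, with overlapping ranges, and Gpnmb (0.542 ± 0.130) and Cst7 (0.522 ± 0.312) overlapped each other and Clec7a. Lpl thus stood above Spp1 in every control and below it in every nlsYAP5SA mouse on this scale.

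The 3 C57BL/6 mice allowed a second comparison, which shares its nlsYAP5SA mice with the first. All 10 members were tested; 6 were called higher and 0 lower, where 4.16% of 16641 genes were called higher and 2.22% lower. Gpnmb (log2 fold change 2.74 ± 0.29, adjusted p = 0.000661), Spp1 (2.78 ± 0.33, 0.00131), Axl (0.57 ± 0.09, 0.00459), Trem2 (0.89 ± 0.15, 0.00717), Clec7a (3.83 ± 0.63, 0.00717) and Cd68 (0.75 ± 0.16, 0.0268) were the 6. Tyrobp was at 0.76 ± 0.20 with an adjusted p of 0.0531, and at 1.07 ± 0.17 (adjusted p = 0.0102) without C57BL/6 mouse 2. Tyrobp was also called by DESeq2 (adjusted p = 0.00422), with library size alone (0.0313), with no filter (0.0312), with genes of 10 or more counts in each mouse (0.0469) and with all 13 mice in a fit (0.0192). Cst7, Clec7a and Gpnmb, the last with 2 of 3 C57BL/6 mice at the minimum, passed the filter here only through the nlsYAP5SA mice. Cst7 was at 2.69 ± 0.84 (adjusted p = 0.0957), with 5 counts in the C57BL/6 mice, 4 of them in mouse 2. Without that mouse Cst7 was at 4.28 ± 1.12 (adjusted p = 0.0792), and DESeq2 on all mice called it (2.76 ± 0.93, adjusted p = 0.0360). Apoe was at 0.33 ± 0.15 (adjusted p = 0.241) and Lpl at -0.22 ± 0.11 (adjusted p = 0.283). The call of Cd68 was lost without nlsYAP5SA mouse 1, 2 or 5 or C57BL/6 mouse 1 (adjusted p between 0.0577 and 0.0827), and within the 2 and 2 mice with Y-linked counts (0.261% of genes called higher and 0.0242% lower) 0 of 9 members were called by edgeR, 7 having an unadjusted p of 0.05 or less.

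The comparison of C57BL/6 with control mice, neither of which has Cre, addresses the transgene and litter background. For 8 members tested, 0 were called by edgeR or DESeq2, and none reached 0.05 before adjustment (0 members). Here 0.169% of 16546 genes were called in either direction. Log2 fold changes ran from -0.32 ± 0.31 for Gpnmb to 0.29 ± 0.14 for Spp1, and the ranges of all 8 overlapped. With 3 mice in a group this does not show that the members are equal: the 95% interval of Spp1 was -0.02 to 0.60.

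**Figure D4:**
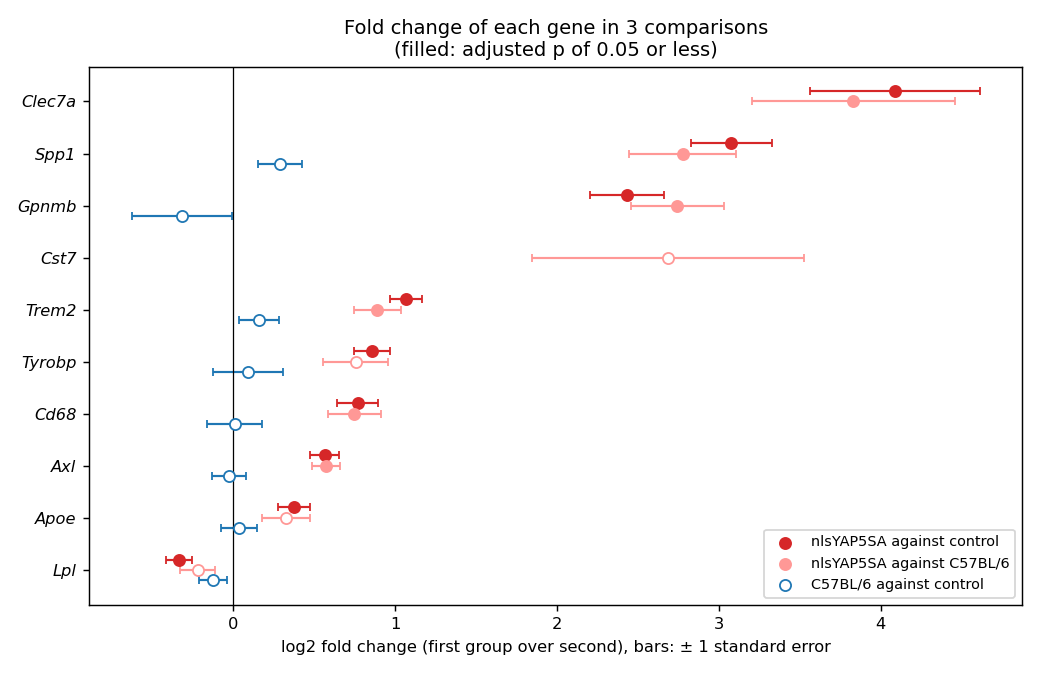
Log2 fold change (horizontal axis, bars ± 1 standard error) of each member in nlsYAP5SA against control, nlsYAP5SA against C57BL/6 and C57BL/6 against control mice; filled points are called, and members that did not pass the filter of a comparison are absent from it. The first pair of comparisons shares the nlsYAP5SA mice, and the third runs from -0.32 to 0.29 with no filled point.

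Genes that act with the 10 members were followed in 8 lists of 106 genes. Of the 96 tested between nlsYAP5SA and control mice, 49 were called higher and 0 lower by edgeR (7.36% and 3.44% of all genes), and 51 and 2 by DESeq2 (8.36% and 5.49% of all genes). With the summed level of homeostatic microglia markers as a covariate, 2 were called higher and 1 lower (0.38% and 0.288% of all genes), and 29 were at or under 0.05 before adjustment. Receptors of phagocytosis and proteins of the lysosomal membrane were called higher in 10 of 12 tested, with a median log2 fold change of 1.09, led by the scavenger receptor Msr1 (3.61 ± 0.54, adjusted p = 0.000867), the integrin chain Itgb2 (1.73 ± 0.17, 3.55e-05) and the Fc receptors Fcgr2b (1.35 ± 0.20, 0.000657) and Fcgr1 (1.34 ± 0.16, 0.000144). Among the other genes known from disease-associated microglia, 13 of 21 tested were called higher. Their largest changes were those of Cybb, the catalytic subunit of the phagocyte NADPH oxidase (3.12 ± 0.35, 9.70e-05), Cd52 (2.79 ± 0.34, 0.000213), the galectin gene Lgals3 (2.53 ± 0.28, 8.94e-05) and the lysozyme gene Lyz2 (2.17 ± 0.19, 1.66e-05).

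Downstream of TYROBP and CLEC7A, 10 of 13 tested signalling genes were called higher, with a median of 0.72. They included the adaptor Lat2 (2.43 ± 0.34, adjusted p = 0.000509), the exchange factor Vav1 (1.06 ± 0.15, 0.000506) and the phospholipase Plcg2 (1.01 ± 0.15, 0.000883). The kinase Syk, which binds the ITAM of TYROBP, was at 0.33 ± 0.14 and not called (adjusted p = 0.175). Of the TAM receptors and their ligands, Mertk (0.90 ± 0.22, 0.0186), Pros1 (0.59 ± 0.11, 0.00367) and Gas6 (0.56 ± 0.05, 2.74e-05) were called higher, and the receptor Tyro3 was at -0.08 ± 0.06 (0.475). The group of osteopontin and GPNMB receptors had 3 of 8 called higher, Cd44 (1.71 ± 0.09, 2.89e-07), Sdc4 (0.84 ± 0.12, 0.000624) and Itgb5 (0.39 ± 0.07, 0.00397).

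Cystatins and their proteases had 3 of 6 called higher: Ctsc, the cathepsin that cystatin F inhibits (1.22 ± 0.20, adjusted p = 0.00140), Lgmn (0.46 ± 0.06, 0.000234) and Ctsh (0.45 ± 0.10, 0.0114). Of 12 tested transcription factors of macrophages, 5 were called higher, among them Runx1 (1.65 ± 0.23, 0.000452), Irf8 (1.199 ± 0.12, 4.78e-05), Cebpa (0.85 ± 0.16, 0.00394) and Spi1, the gene of PU.1 (0.63 ± 0.13, 0.00622). Lipid handling, the group closest to Apoe and Lpl, had a median of 0.15 and 2 of 20 called by edgeR, the cholesterol hydroxylase gene Ch25h (1.56 ± 0.32, 0.00699) and the cholesterol exporter gene Abca1 (0.57 ± 0.17, 0.0454), a share near the 7.36% called higher among all genes. Before adjustment 14 of the 20 were at or under 0.05, as were 3984 of all 16315 genes tested, and DESeq2 called 4 higher and 1 lower. The edgeR count was 1 without control 2, 4 or 5 or nlsYAP5SA mouse 2 or 5, and 4 without nlsYAP5SA mouse 4. Within the mice with Y-linked counts, where 1.82% of 16918 genes were called higher and 0.154% lower, called members of these lists numbered 7 of the phagocytic, 9 of the disease-associated, 4 of the signalling, 1 of the TAM, 1 of the receptor, 2 of the cystatin, 2 of the transcription factor and 0 of the lipid list.

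**Figure D5:**
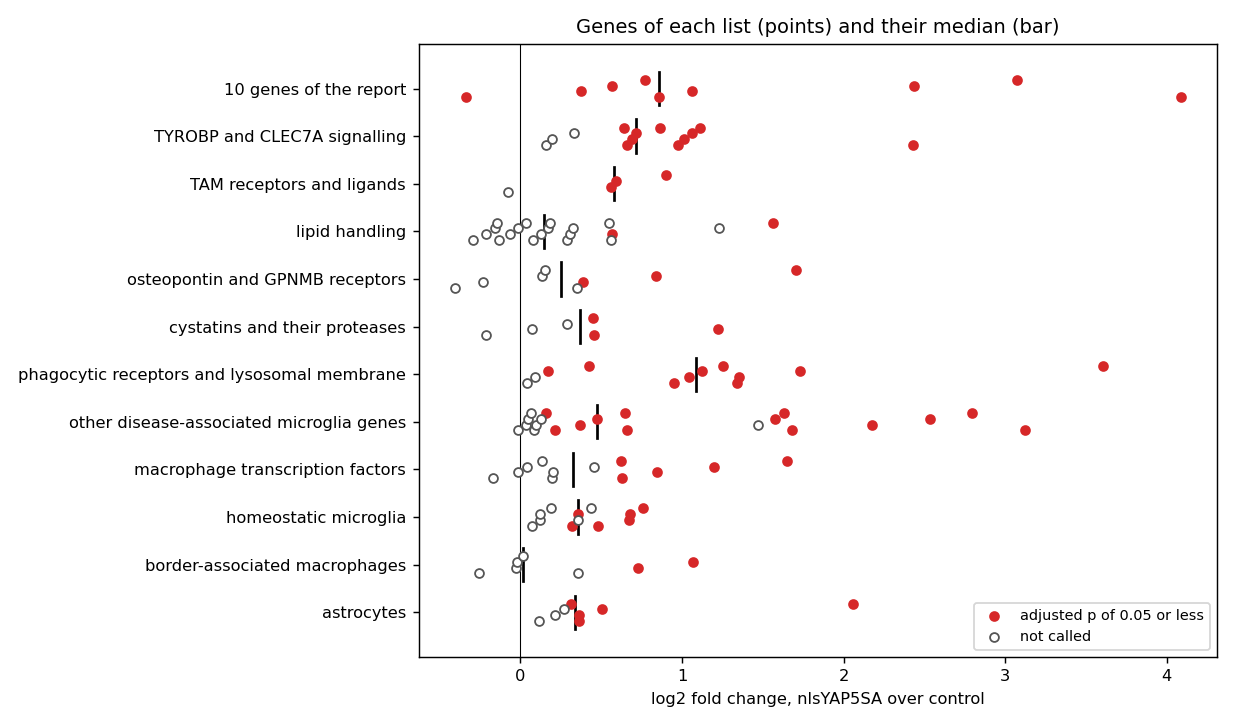
Log2 fold change between nlsYAP5SA and control mice (horizontal axis) of each tested gene in the 10 genes, their 8 partner lists and 3 lists of cell type markers; filled points are called and the vertical bar is the median of a list. The median is 1.09 for phagocytic receptors and lysosomal membrane and 0.15 for lipid handling.

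Of 12 markers of microglia in their resting, homeostatic state, 6 were called higher (2 within the mice with Y-linked counts) and 0 lower, from 0.76 ± 0.10 for the receptor gene Csf1r (adjusted p = 0.000248) to 0.07 ± 0.11 for P2ry12 (0.749). Their summed level was between 392 and 488 CPM in controls, 519 and 666 CPM in nlsYAP5SA mice and 409 and 475 CPM in C57BL/6 mice, and the means of nlsYAP5SA and control mice differed 1.41-fold. Relative to this sum, 5 members stayed above every control: Cst7 (ratio of means 13.5), Clec7a (11.6), Spp1 (5.86), Gpnmb (3.87) and Trem2 (1.48). Tyrobp (1.27), Cd68 (1.21), Axl (1.05) and Apoe (0.923) overlapped with the controls, and Lpl (0.562) lay below every control. The share of all genes that separate on this ratio was not computed, so these counts have no background. Since the divisor itself differed 1.41-fold, the ratio of a gene with an unchanged level falls. Lpl overlapped with the controls in CPM, so its separation on the ratio does not by itself show a lower level. With the log2 of the sum as a covariate, which itself does not overlap between the groups, 0 members were called higher and 0 lower by edgeR, while 6 of the 9 were at or under 0.05 before adjustment. DESeq2 was not run with the covariate. Estimates then ran from -0.43 ± 0.18 for Lpl to 2.47 ± 0.51 for Gpnmb; Axl was at 0.07 ± 0.12 (adjusted p = 0.811) and Trem2 at 0.99 ± 0.23 (0.0809), and the same fit called 0.38% of all genes higher and 0.288% lower.

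Other myeloid cells express several of the 10 genes too. Of 7 markers of border-associated macrophages, Cd163 (1.07 ± 0.26, adjusted p = 0.0196) and F13a1 (0.73 ± 0.18, 0.0186) were called higher. This count was 1 without nlsYAP5SA mouse 2 or 5 and with the replicate block, and 0 with the Y-linked, homeostatic or astrocyte sum or Ttr as a covariate. The sum of the 7 overlapped between controls (18.9 to 30.8 CPM) and nlsYAP5SA mice (27.3 to 42.1 CPM). Of 5 monocyte markers only Ccr2 passed the filter (2.90 ± 0.81, 0.0376); the sum was between 0.330 and 0.665 CPM in controls and between 0.736 and 5.18 CPM in nlsYAP5SA mice. Mouse 2 alone had 4.38 CPM of Ccr2, and the call was lost without control 1, 3, 4 or 5 or without nlsYAP5SA mouse 2 or 5 (adjusted p between 0.0626 and 0.0958 in these 6 fits) and with each of the same 4 covariates. None of 6 neutrophil markers passed the filter; their sum was at most 0.695 CPM in any mouse, with Ly6g at 0 in all 13. Of 8 lymphocyte markers 1 was tested and 0 were called by edgeR or DESeq2 or before adjustment (1 was called with no filter), with sums of 3.44 to 4.66 CPM in controls and 3.67 to 5.92 CPM in nlsYAP5SA mice. Of 8 astrocyte markers 5 were called higher, among them Gfap (2.06 ± 0.07, 1.34e-08). The count was 2 without control 2 or nlsYAP5SA mouse 1, 2 or 5, and 1 with the replicate block. Of 6 endothelial markers 3 were called lower, of 6 choroid plexus markers 1 was called higher, and 0 of 6 oligodendrocyte and 0 of 7 neuronal markers were called by edgeR. Before adjustment 5 of the oligodendrocyte and 1 of the neuronal markers had a p of 0.05 or less (3984 of all 16315 genes tested), and DESeq2 called 2 and 0. Without control 2 or nlsYAP5SA mouse 2, edgeR called 3 oligodendrocyte markers lower, and with the astrocyte sum as a covariate 6 oligodendrocyte and 2 neuronal markers were lower. The choroid plexus count was 2 without nlsYAP5SA mouse 4. Within the mice with Y-linked counts, edgeR called 0 border-associated macrophage and 0 monocyte markers (0 and 0 before adjustment) and 1 astrocyte marker. There it also called 0 endothelial, choroid plexus, oligodendrocyte, neuronal and lymphocyte markers, of which 4, 1, 6, 0 and 0 were at or under 0.05 before adjustment. The part of these cells in the levels of the members was not tested.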

How the data were processed

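The authors used CutAdapt for trimming and STAR for mapping to GRCm38 and Ensembl transcripts, and deposited RSEM estimated counts per gene, neither normalized nor filtered; the sources used here give different versions of STAR and no strand setting, so counts of overlapping genes are uncertain. Labels and methods give groups and replicate numbers. Estimated counts were rounded, scaled with TMM, filtered with filterByExpr (minimum count 10, total 15) and tested two-sided with edgeR 4.0.16 (R 4.3.3), tested on simulated data first; DESeq2 1.42.0 was an alternative. Library totals were 20871566 to 25524349 counts. The interval of the Cst7 ratio covers counting error only. That of Spp1 comes from the edgeR standard error, which includes the spread between mice. Replicates differed beyond sampling noise in 23 of 23 pairs.

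Members and gene lists were chosen with earlier results of these data known. Named genes were the members, Yap1, every called gene of a partner list (the 4 largest changes where over 6 were called), the extremes of the homeostatic markers and the gene nearest to each member in profile; some genes that this rule names are not reported here. Other genes, among them Syk, Tyro3, Gfap, Ttr, the macrophage and monocyte markers and Gm42793, were picked after their values were seen. Positions and exonic lengths are from GENCODE M21 (GRCm38), promoters from RefSeq (GRCm38.p6). The fit on mice with Y-linked counts was chosen after seeing the data. Replicate numbers do not pair the mice: deviations of same-numbered mice correlated between -0.31 and 0.31.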

Additional observations from a re-analysis of the deposited data

Results flagged for a closer look

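Among 22 sets of values, for the 10 members and the summed homeostatic microglia markers in controls and in nlsYAP5SA mice, Dixon's criterion for 5 samples (0.710) set 2 mice apart, and chance alone sets about 1 set in 20 apart. Control 2 was the only control with counts of Cst7, at 0.117 CPM, so its gap to the others was the whole range. Control 4 was the highest control for Spp1, at 6.25 CPM, with a gap of 0.712 of the range. Both values lay below every nlsYAP5SA mouse.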

How the results depend on the processing

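Of 197 member results under alternatives in nlsYAP5SA against control mice, 169 kept their direction and side of the threshold, 28 lost the call and 0 reversed. Members called higher numbered 5 within the mice with Y-linked counts and 0 with the homeostatic sum as a covariate; leaving out a mouse gave 7 to 8. The call of Lpl was lost, leaving 0 called lower, with these 2 settings and with the Y-linked or the astrocyte sum as a covariate, and leaving out a mouse gave 0 to 1. The fit within the mice with Y-linked counts has fewer mice, and its estimates were 0.57 for Cd68, 0.21 for Apoe and -0.24 for Lpl. With the Y-linked sum as a covariate over all mice of both groups they were 0.58, 0.21 and -0.24. In that covariate fit the calls of Cd68 (adjusted p = 0.0549) and Apoe (0.479) were lost and that of Axl was kept (0.0391). Causes were not tested. The replicate block, although replicate numbers do not pair the mice, gave 8 higher and 1 lower. Against C57BL/6, 133 of 154 results kept their side, 14 lost and 7 gained a call; 6 members called higher became 2 with the replicate block, 0 within the mice with Y-linked counts and 5 to 7 leaving out a mouse. In C57BL/6 against control, where 0 members were called, 15 of 128 signs changed. These were Tyrobp at -0.025 and Axl at 0.073 with the replicate block, Cd68 at -0.023 with library size alone and -0.0036 with no filter, and, within the mice with Y-linked counts, Tyrobp at -0.20, Apoe at -0.10 and Cd68 at -0.11. The other 8 came from leaving out a mouse, over which Tyrobp ran from -0.20 to 0.30, Apoe from -0.10 to 0.14, Axl from -0.080 to 0.014 and Cd68 from -0.11 to 0.16. In this comparison the fit within the mice with Y-linked counts drops only C57BL/6 mouse 2. It is the same fit as leaving out that mouse, so its sign changes are counted again among these 8.

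Over all genes, 1200 higher and 561 lower calls against control became 308 and 26 within the mice with Y-linked counts, 476 and 64 with the Y-linked covariate and 62 and 47 with the homeostatic covariate; lower calls were 895 with DESeq2, 303 with the replicate block and 296 to 641 leaving out a mouse. Against C57BL/6, 692 and 369 became 45 and 2 with the block and 43 and 4 within the mice with Y-linked counts; lower calls were 236 with library size alone, 644 with DESeq2, 565 with all 13 mice in a fit. Leaving out a mouse gave 302 to 987 higher calls (302 and 460 without C57BL/6 mouse 1 or 2, 445 and 396 without nlsYAP5SA mouse 2 or 5) and 99 to 770 lower calls. Depth limits Cst7, Clec7a and Gpnmb, with 3, 28 and 77 counts in all controls together.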

Other observations

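Outside the lists, the gene whose profile over the 13 mice was most like that of each tested member was sought among 14644 genes, by the root mean square difference of log2 (CPM + 0.5) from the control mean. Trem2 was nearest to Txnip (0.11), a thioredoxin-interacting protein gene, which was at 24.7 CPM in controls and 48.6 CPM in nlsYAP5SA mice. Tyrobp was nearest to Rac2 (0.12), a GTPase gene of blood cells, Cd68 to Laptm5 (0.11), a lysosomal protein gene of blood cells, and Gpnmb to the cathepsin gene Ctss (0.25), which was at 26.6 CPM in controls and 94.98 CPM in nlsYAP5SA mice. Of the 2 members with the largest changes, Clec7a was nearest to Lrp2 (0.34), the gene of the endocytic receptor megalin. Spp1 was nearest to the imprinted RNA gene H19 (0.26), which was at 7.23 CPM in controls and 52.3 CPM in nlsYAP5SA mice. Axl was nearest to Akna (0.06), Apoe to Tsc22d4 (0.08) and Lpl to Rexo2 (0.06). All 13 mice enter each measure, so it carries the difference between the groups as well as the spread within them.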
